A study of Mus musculus with 6 samples.

Results

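Oxidative phosphorylation makes most of the ATP of a resting cell: complexes I to IV of the inner mitochondrial membrane pass electrons from NADH and succinate to oxygen, all but complex II pump protons as they do so, and complex V, the ATP synthase, uses the returning protons to make ATP. A few subunits at the heart of complexes I, III, IV and V are made inside mitochondria, and all other subunits come from nuclear genes, which are the subject here. Platelets have no nucleus but carry mitochondria and RNA that they inherit from megakaryocytes, and they use both glycolysis and respiration. The set was picked with earlier results of these data known, and its members were taken by a rule on symbols. The rule took array probes annotated with exactly 1 symbol that begins with Nduf, Uqcr, Atp5, Cox4, Cox5, Cox6, Cox7 or Cox8. Probes whose only symbol is Sdha, Sdhb, Sdhc, Sdhd, Cyc1 or Cycs were also taken, and pseudogenes marked -ps were left out. This gave 93 genes of 30142 measured by such probes: 34 of complex I, 4 of complex II, 9 of complex III, cytochrome c (Cycs), 20 of complex IV, 17 of complex V and 8 assembly factors of complex I. Ndufa4 and Ndufa4l2 were counted with complex IV, where the Ndufa4 protein is found, and Atp5sl, listed as Dmac2 by RefSeq, with the assembly factors.

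RNA of mouse platelets from blood and of bone marrow cells labelled megakaryocyte progenitors was hybridised to Clariom D Mouse arrays. Each cell type came from mice given CTC41-EVs, CTC41.5G-EVs or PBS, and each of the 6 groups was 1 array of RNA pooled over mice. EVs are extracellular vesicles, membrane particles that cells release. The sources used here do not give the mice's number, strain or age, nor the dose and timing of the treatments. The protocols in the labels allow for magnetic removal of leukocytes and red cells from a pool before the RNA was taken, without saying which pools had it. A value is a log2 signal, so 1 unit is a doubling, and 3 values of a cell type are those of CTC41-EVs, CTC41.5G-EVs and PBS. The 3 arrays of a cell type differ in treatment, and the fit has terms for cell type and treatment. An SE and a p-value rest on how far the difference between cell types varied over the 3 treatments, pooled with the spread of other genes of like signal. They do not measure the spread between animals. Since probes differ in brightness, no gene's level is set against another gene's.

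All 12 measured platelet and megakaryocyte markers were higher in platelets, with a median difference of 4.11 on the log2 scale. Their mean level was 9.74 to 10.22 on the platelet arrays and 5.36 to 5.54 on the progenitor arrays, where 2 of them lay below 4.23, the median of all probes' mean signals. All 10 neutrophil and precursor markers were higher there than in platelets, with a median of -1.77 for platelets minus progenitors. The mean level of these 10 was 5.07 to 5.28 on the platelet arrays and 7.16 to 7.34 on the progenitor arrays. On the arrays labelled megakaryocyte progenitors, megakaryocyte markers were thus far below their platelet level while granulocyte precursor markers were above theirs. Of 6 measured erythroid markers, Alas2, Fech and Slc4a1 were higher in platelets by 4.75 (SE 0.12), 4.86 (SE 0.15) and 2.17 (SE 0.13), and the mean level of the 6 was 6.60 to 6.69 on the platelet arrays and 4.67 to 4.72 on the progenitor arrays. The other 3, Epor, Klf1 and Tfrc, were not called. Of 6 monocyte markers, Lyz2 (2.94, SE 0.16) and Ly6c2 (0.94, SE 0.11) were higher in platelets, and 4 of 7 B cell markers were lower there. None of 6 T and NK cell markers or of 3 pan-leukocyte markers was called. These shifts run along the comparison of platelets with progenitors, and their part in the results on it was not tested. In bulk RNA, fewer cells of a type and less RNA per cell cannot be told apart.

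Nuclear oxidative phosphorylation genes were mostly higher in platelets than in progenitors. Of the 93, 51 were higher and 2 were lower, called where limma's p, adjusted by Benjamini-Hochberg over all genes, was 0.05 or less and the difference 1.5-fold or more, while 11.4% of all genes were higher and 23.3% lower. The median difference of the 93 was 0.65, against -0.24 over all genes. The signal was at least 4-fold higher in platelets for 13 members, and for 758 of all 30142 genes. The signals of the 2 cell types did not overlap for 71 members. A difference in the same direction under all 3 treatments was found for 63 members that were higher and 13 that were lower in platelets. Another 7 members that were higher and 7 that were lower passed the adjusted p but stayed under 1.5-fold. For these counts of overlap, direction and calls under 1.5-fold no share over all genes is given, so they describe the members only. With the 87 members whose mean signal reached 4.23, the counts were again 51 and 2, beside 16.2% and 25.7% of all genes above that level. In terms of each cell type's mean, 5 members lay below 4.23 in both cell types, 3 in platelets only and 2 in progenitors only.

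The general level of the arrays bears on these counts, because the median probe stood at 4.0 to 4.05 on the platelet arrays and 4.38 to 4.45 on the progenitor arrays. With quantile normalization the members split into 58 higher and 0 lower, beside 17.0% and 10.4% of all genes. With the arrays scaled to the same median they split into 60 and 0, beside 20.1% and 8.6%, and centred on the olfactory receptor genes, which are known from olfactory tissue, into 76 and 0, beside 40.3% and 4.25%. The median of the members moved to 0.86, 1.02 and 1.36 in these settings and that of all genes to 0.06, 0.13 and 0.47. The 51 members called higher were called higher under each of the 3 scalings. The 2 calls of lower members were lost under each of them. Some directions below 0 given here also turned: of 43 members named by rule, 4 turned to above 0 with quantile normalization, 8 with equal medians and 14 with centring on the olfactory receptor genes. The 14 were Ndufv1, Ndufb10, Ndufaf6, Atp5sl, Sdhd, Cyc1, Cox4i2, Cox6a2, Cox7a1, Cox7b, Cox7b2, Cox8b, Atp5g1 and Atp5g2.

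**Figure D1:**
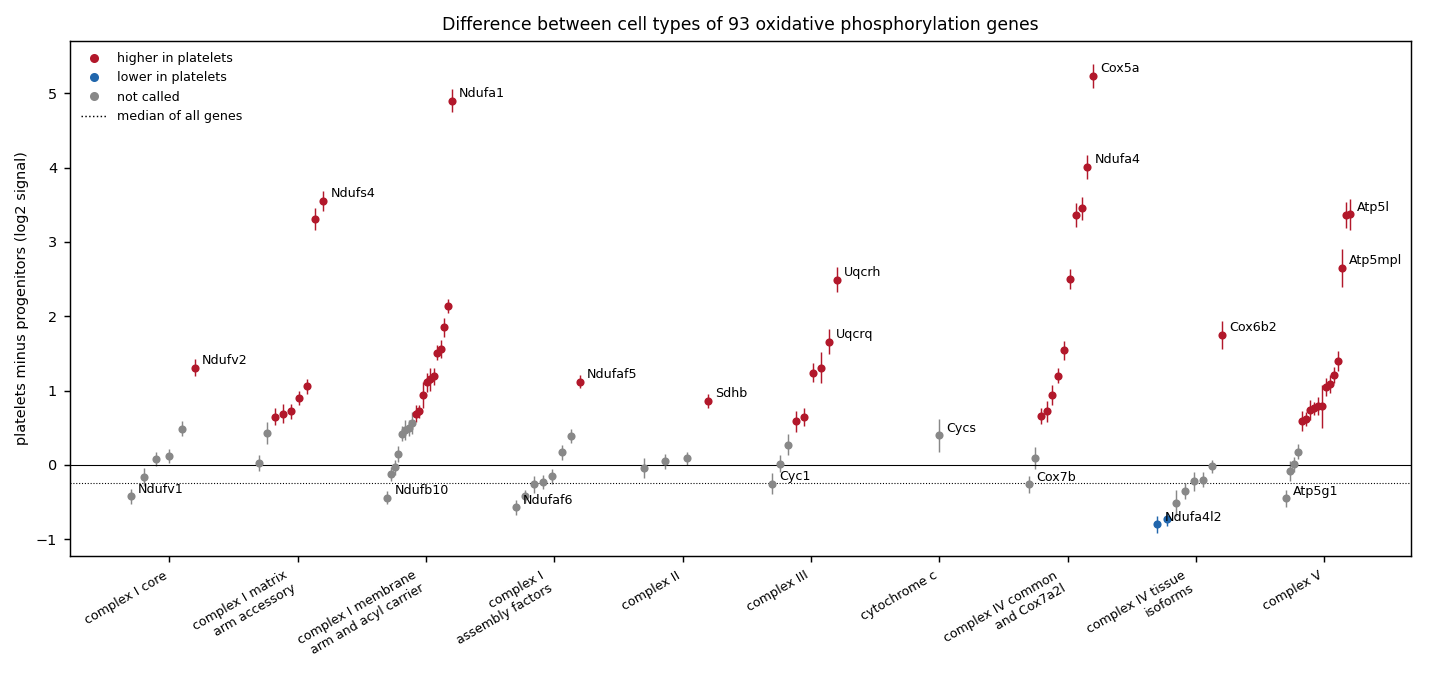
Difference between platelets and progenitors (log2 signal, vertical axis) of the 93 genes, grouped by complex and type of subunit, with the standard error of the limma fit as bars. Red points were called higher in platelets (51), blue points lower (2) and grey points neither (40), and the dotted line is the median of all genes at -0.24.

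The 4 genes taken as markers of this set were all higher in platelets. They were taken with earlier results of these data known, so their shared direction may follow from that choice and is no support. Cox5a, a structural subunit of cytochrome c oxidase on its matrix side, had signals of 9.90, 10.30 and 10.21 in platelets, against 5.02, 5.06 and 4.64 in progenitors. Every platelet array exceeded every progenitor array, with a limma difference of 5.23 (SE 0.16, adjusted p = 4.86e-06), the largest difference of the 93. Ndufa1, a small X-linked subunit needed to build the membrane arm of complex I, had 10.15, 10.51 and 10.37 in platelets, against 5.45, 5.72 and 5.17 in progenitors. The 2 groups lay far apart here too, with a difference of 4.90 (SE 0.16, adjusted p = 5.23e-06). Ndufa4, first assigned to complex I and now to complex IV, had 9.15, 9.53 and 9.29 in platelets, against 5.52, 5.45 and 4.98 in progenitors, a difference of 4.01 (SE 0.16, adjusted p = 7.42e-06). Uqcrq, a small subunit of complex III, had 7.71, 7.89 and 7.92 in platelets, against 6.07, 6.63 and 5.82 in progenitors. Its difference was the smallest of the 4, 1.66 (SE 0.17, adjusted p = 0.00029), and its progenitor array of CTC41.5G-EVs was the highest of the 3 without reaching the platelet range.

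Promoter windows from RefSeq (GRCm38.p6, 250 bases before to 50 after the start of transcription) matched 75 of the 93 members, and the members lay on 19 chromosomes. They were searched on both strands for the cores of 3 factors known for nuclear genes of the respiratory chain: GCGCATGCG for NRF1, CCGGAAG for GABP and AAGATGGC for YY1. A match is a description of the sequence, not a site. GABP's core was in the windows of 18 members (24.0%), against 12.9% of 17492 protein-coding genes. NRF1's core was in 10 (13.3%), against 2.61%, and YY1's in 11 (14.7%), against 3.57%. Among the 41 matched members called higher in platelets, GABP's core was in 14 (34.1%), and among the 34 others in 4 (11.8%). The same shares were 12.2% and 14.7% for NRF1's core and 12.2% and 17.6% for YY1's. Of the 11 matched members at least 4-fold higher, 5 held GABP's core: Cox6b1, Cox8a, Uqcrh, Atp5md and Atp5l. Atp5l, which is also among the 14, is counted by a probe on chromosome 5, while the window is that of its gene on chromosome 9, whose probes there were not called. These shares were looked at after the differences were known and carry no test.

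The windows of 6 strongly differing members are shown so that the cores can be seen in place, 5′ to 3′ on the gene's strand and with each match in capitals (CTTCCGG is GABP's core read on the other strand). Cox5a has the largest difference and no match, which says only that these letters are not in its window. Cox6b1, Cox8a, Uqcrh and Atp5md hold GABP's core and Ndufs4 holds YY1's.
Cox5a, chr9:57520982-57521281, plus strand: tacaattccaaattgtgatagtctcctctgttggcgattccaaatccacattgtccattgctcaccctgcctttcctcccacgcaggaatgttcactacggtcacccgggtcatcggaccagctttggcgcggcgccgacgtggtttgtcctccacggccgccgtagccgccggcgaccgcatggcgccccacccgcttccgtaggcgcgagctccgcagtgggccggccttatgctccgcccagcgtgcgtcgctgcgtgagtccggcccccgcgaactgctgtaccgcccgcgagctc
Cox6b1, chr7:30626065-30626364, minus strand: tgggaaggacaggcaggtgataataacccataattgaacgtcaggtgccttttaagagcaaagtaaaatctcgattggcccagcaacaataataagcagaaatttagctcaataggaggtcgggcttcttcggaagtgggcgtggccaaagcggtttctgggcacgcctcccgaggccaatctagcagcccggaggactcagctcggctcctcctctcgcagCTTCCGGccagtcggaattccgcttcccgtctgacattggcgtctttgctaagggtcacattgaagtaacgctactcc
Cox8a, chr19:7217567-7217866, minus strand: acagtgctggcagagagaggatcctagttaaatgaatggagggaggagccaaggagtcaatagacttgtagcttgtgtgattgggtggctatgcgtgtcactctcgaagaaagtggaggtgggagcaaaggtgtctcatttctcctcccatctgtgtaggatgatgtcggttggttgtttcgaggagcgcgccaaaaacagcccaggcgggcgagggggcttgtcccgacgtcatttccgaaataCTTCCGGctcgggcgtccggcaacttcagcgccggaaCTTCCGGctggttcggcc
Uqcrh, chr4:116075021-116075320, minus strand: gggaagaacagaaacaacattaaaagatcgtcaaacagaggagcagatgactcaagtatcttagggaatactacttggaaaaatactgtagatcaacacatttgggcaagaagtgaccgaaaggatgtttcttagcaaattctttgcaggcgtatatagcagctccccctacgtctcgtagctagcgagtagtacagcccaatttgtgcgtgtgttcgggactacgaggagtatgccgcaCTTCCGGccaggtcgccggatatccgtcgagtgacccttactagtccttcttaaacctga
Atp5md, chr19:47090598-47090897, minus strand: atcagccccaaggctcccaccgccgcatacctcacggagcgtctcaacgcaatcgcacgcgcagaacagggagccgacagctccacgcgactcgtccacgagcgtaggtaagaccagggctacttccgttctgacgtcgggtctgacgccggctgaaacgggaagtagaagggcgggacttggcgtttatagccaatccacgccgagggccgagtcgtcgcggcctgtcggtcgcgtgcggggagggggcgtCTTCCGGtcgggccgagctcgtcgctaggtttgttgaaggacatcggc
Ndufs4, chr13:114388045-114388344, minus strand: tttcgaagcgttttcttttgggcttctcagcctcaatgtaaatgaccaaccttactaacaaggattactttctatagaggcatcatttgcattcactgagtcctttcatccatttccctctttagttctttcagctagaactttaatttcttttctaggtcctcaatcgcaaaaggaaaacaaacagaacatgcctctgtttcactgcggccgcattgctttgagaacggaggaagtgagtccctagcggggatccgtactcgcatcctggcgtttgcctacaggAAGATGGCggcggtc
The matches of Cox6b1, Cox8a, Uqcrh, Atp5md and Ndufs4 all lie in the last part of the window, near the start and on either side of it. Cox8a holds 2 of them.

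Complex I takes electrons from NADH. Its core subunits carry the flavin and the iron-sulfur clusters and have bacterial counterparts, and its many accessory subunits surround them. Of 34 subunits measured, 19 were higher in platelets and none lower, with a median of 0.69. Among the accessory subunits of the matrix arm 7 of 9 were higher, and among those of the membrane arm 11 of 18. Ndufs4, an accessory subunit whose loss causes Leigh-like disease in mice, had 7.95, 8.42 and 8.10 in platelets, against 4.59, 4.53 and 4.71 in progenitors, a difference of 3.55 (SE 0.13, adjusted p = 6.62e-06). Ndufa2, with a thioredoxin-like fold, had 8.92, 9.49 and 9.30 in platelets, against 5.93, 6.04 and 5.82 in progenitors, a difference of 3.31 (SE 0.15, adjusted p = 1.08e-05). For both, the lowest platelet signal lay well above the highest progenitor signal. Ndufb11, X-linked like Ndufa1, differed by 2.14 (SE 0.09), Ndufb9 by 1.85 (SE 0.13) and Ndufb7 by 1.56 (SE 0.12).

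The core subunits of complex I went with this shift in 1 case of 6. Ndufv2, which holds an iron-sulfur cluster, had 5.55, 5.51 and 5.81 in platelets, against 4.30, 4.40 and 4.26 in progenitors, a difference of 1.31 (SE 0.11, adjusted p = 0.000122). The other core subunits were not called. Ndufs8 differed by 0.49 (SE 0.10), Ndufs1 by 0.12 (SE 0.09), Ndufs7 by 0.08 (SE 0.09), Ndufs3 by -0.16 (SE 0.12) and Ndufv1 by -0.42 (SE 0.10). Ndufv1, which binds NADH and flavin and sits beside Ndufv2 in the enzyme, had 5.25, 5.53 and 5.52 in platelets, against 5.86, 5.92 and 5.78 in progenitors, so all 3 platelet arrays were below all 3 progenitor arrays. That difference passed the adjusted p (0.0112, limma) but not 1.5-fold. The same held for Ndufb10 of the membrane arm, with 5.36, 5.52 and 5.43 in platelets, against 5.90, 5.96 and 5.78 in progenitors and a difference of -0.44 (SE 0.09, adjusted p = 0.00546). Neither direction held under every scaling: Ndufv1 differed by -0.22 with quantile normalization, -0.04 with equal medians and 0.30 with centring on the olfactory receptor genes, and Ndufb10 by -0.25, -0.07 and 0.28 in the same order. Ndufab1, the mitochondrial acyl carrier protein that is also a subunit of complex I, differed by -0.12 (SE 0.09) and was not called.

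Assembly factors of complex I help to build the enzyme but do not stay in it. Their median difference was -0.19, beside -0.24 over all genes. Of the 8, 1 was higher (12.5%) and none lower, beside 11.4% and 23.3% of all genes. Ndufaf5, which modifies an arginine of the core subunit Ndufs7, had 5.00, 5.18 and 4.97 in platelets, against 3.91, 3.95 and 3.92 in progenitors. The progenitor signals were below 4.23, so the fitted 1.12 (SE 0.09, adjusted p = 9.62e-05) depends on background, and from that floor the difference was 0.82. Ndufaf6 had 3.59, 3.75 and 3.67 in platelets, against 4.28, 4.19 and 4.27 in progenitors, with platelets below the floor, and it differed by -0.57 (SE 0.10, adjusted p = 0.00235), under 1.5-fold, or by -0.02 from the floor. Atp5sl had 4.98, 4.97 and 4.80 in platelets, against 5.41, 5.32 and 5.28 in progenitors and differed by -0.42 (SE 0.09, adjusted p = 0.00536), also under 1.5-fold. With centring on the olfactory receptor genes Ndufaf6 turned to 0.14 and Atp5sl to 0.30. Ndufaf4 (0.39, SE 0.09) and Ndufaf1 (0.17, SE 0.10) were not called, and Ndufaf4 lay below the floor in both cell types.

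Complex II, succinate dehydrogenase, is shared with the tricarboxylic acid cycle. Of its 4 subunits, the iron-sulfur subunit Sdhb was called, with 6.09, 6.19 and 6.01 in platelets, against 5.28, 5.38 and 5.04 in progenitors and a difference of 0.86 (SE 0.09, adjusted p = 0.000331). Sdha, the flavoprotein that oxidises succinate, differed by 0.09 (SE 0.09), and the membrane anchors Sdhc and Sdhd by 0.05 (SE 0.10) and -0.04 (SE 0.13). The signals of these 3 genes overlapped between the cell types, and the median of the 4 was 0.07.

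Complex III passes electrons from ubiquinol to cytochrome c. Of 9 subunits 6 were higher in platelets and none lower, and all 5 small accessory subunits were among the 6. Uqcrh, the hinge protein at the docking site of cytochrome c, had 7.50, 8.06 and 7.96 in platelets, against 5.32, 5.75 and 4.97 in progenitors, a difference of 2.49 (SE 0.17, adjusted p = 4.8e-05). Uqcrb, near the quinone site, differed by 1.31 (SE 0.21), Uqcr11 by 1.24 (SE 0.13) and Uqcr10 by 0.64 (SE 0.12). The remaining one was the core protein Uqcrc2 (0.59, SE 0.14, at 1.5-fold just past the limit), while its partner Uqcrc1 differed by 0.02 (SE 0.12). The 2 electron-carrying subunits made from nuclear genes were not called. Cyc1, the cytochrome that hands electrons on to cytochrome c, had 5.49, 5.74 and 5.86 in platelets, against 6.08, 6.03 and 5.74 in progenitors and differed by -0.25 (SE 0.14), with overlapping groups. Uqcrfs1, the Rieske iron-sulfur protein, differed by 0.27 (SE 0.14).

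Cytochrome c, Cycs, carries electrons from complex III to complex IV. Its probe gave 5.74, 5.87 and 6.57 in platelets, against 5.77, 5.75 and 5.46 in progenitors, so the PBS array of platelets stood above the others and the groups overlapped. The difference was 0.40 (SE 0.22, adjusted p = 0.146). The probe used lies on chromosome 19 by its identifier, whereas the gene lies on chromosome 6. A dimmer probe on chromosome 6 differed by 0.38 (SE 0.10, adjusted p = 0.0138, limma), under 1.5-fold. The treatment term makes the fits without the platelet or without the progenitor array of a treatment give the same difference, so they are not separate checks. Without either CTC41-EVs array, the probe used differed by 0.61 and was called. Without either PBS array it differed by 0.04 (adjusted p = 0.788 without that of platelets and 0.785 without that of progenitors, limma).

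Complex IV, cytochrome c oxidase, reduces oxygen. Its nuclear subunits surround a core made in the mitochondrion, and several exist as isoforms used in particular tissues. Of 11 common subunits 9 were higher in platelets and none lower, with a median of 1.2. Cox6b1, which faces the intermembrane space where cytochrome c binds, had 8.46, 8.82 and 8.62 in platelets, against 5.37, 5.36 and 4.84 in progenitors, a difference of 3.45 (SE 0.15, adjusted p = 9.65e-06). Cox7a2, the widely used form of subunit VIIa, had 8.92, 9.42 and 9.25 in platelets, against 5.85, 6.07 and 5.56 in progenitors, a difference of 3.36 (SE 0.16, adjusted p = 1.13e-05). Cox8a had 8.62, 9.10 and 8.89 in platelets, against 6.29, 6.46 and 6.36 in progenitors, a difference of 2.5 (SE 0.13, adjusted p = 1.93e-05). The groups of these 3 genes were apart by more than 2 log2 units at their closest. Cox4i1, Cox6a1, Cox6c and Cox7c differed by less, 1.2 (SE 0.10), 0.94 (SE 0.13), 0.72 (SE 0.14) and 0.66 (SE 0.11), and were called. Cox5b, whose protein binds zinc, differed by 0.09 (SE 0.15) and Cox7b by -0.26 (SE 0.11), and neither was called. Cox7a2l, which joins complexes III and IV in supercomplexes, was higher by 1.54 (SE 0.13, adjusted p = 0.000129).

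Of the 8 tissue isoforms of complex IV subunits, 1 was higher (12.5%), 2 were lower (25.0%) and 5 were not called, beside 11.4% and 23.3% of all genes. Their median was -0.29, beside -0.24 over all genes. Cox6b2, the form of subunit VIb known from testis, was the one that was higher, with 8.35, 8.56 and 7.95 in platelets, against 6.59, 6.33 and 6.68 in progenitors and a difference of 1.75 (SE 0.19, adjusted p = 0.000396). All 3 platelet arrays exceeded the 3 progenitor arrays. Cox8c, a testis form of subunit VIII, had 4.74, 5.03 and 4.84 in platelets, against 5.47, 5.81 and 5.50 in progenitors and was lower, with a difference of -0.73 (SE 0.09, adjusted p = 0.000544). Ndufa4l2, a relative of Ndufa4 known to be induced by low oxygen, had 4.21, 4.01 and 4.13 in platelets, against 4.83, 5.05 and 4.85 in progenitors and was lower, with a difference of -0.80 (SE 0.11, adjusted p = 0.000995), or -0.68 from the floor of 4.23, since its platelet signals were below it. Cox4i2, the lung form of subunit IV, differed by -0.22 (SE 0.13), and the heart and muscle forms Cox6a2, Cox7a1 and Cox8b by -0.20 (SE 0.10), -0.02 (SE 0.09) and -0.35 (SE 0.11). Cox7b2, a testis form, differed by -0.51 (SE 0.18) with both cell types below the floor. Thus Cox6b1 and Cox6b2 both were higher in platelets, whereas for Cox8a and Cox8c, and for Ndufa4 and Ndufa4l2, the common gene was higher and the isoform lower. These lower calls were lost under all 3 other scalings, as given above, and Cox4i2, Cox6a2, Cox7a1, Cox7b2 and Cox8b turned to above 0 with centring on the olfactory receptor genes.

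**Figure D2:**
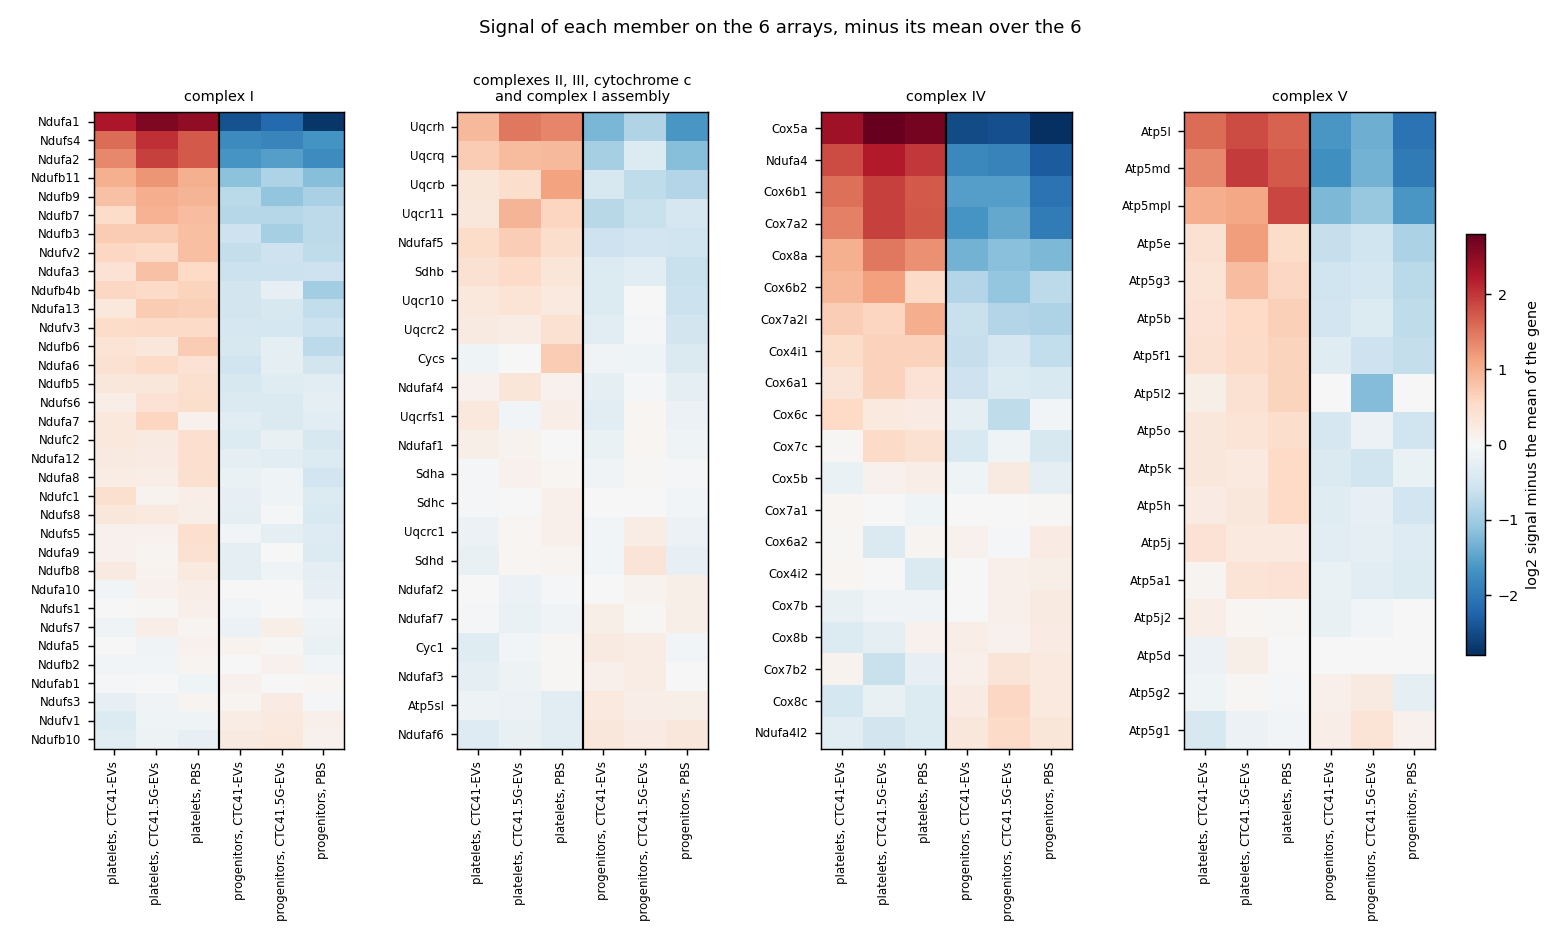
Log2 signal of each of the 93 genes on each of the 6 arrays, minus the gene's mean over the 6 (red above it, blue below), with platelet arrays left of the line and progenitor arrays right of it. Genes run from the highest difference between the cell types at the top to the lowest at the bottom of each panel, and the colours show differences within a gene, not levels between genes.

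Complex V, the ATP synthase, had 13 of 17 members higher in platelets and none lower, with a median of 0.79. Its membrane part holds several small accessory subunits, of which 5 of 6 were higher. Both counts include Atp5l, on a probe off its gene's chromosome, and Atp5l2, called close to the limit, which are described below. Atp5md, also known as DAPIT, which stabilises pairs of ATP synthases, had 9.37, 9.98 and 9.73 in platelets, against 6.29, 6.69 and 6.03 in progenitors, a difference of 3.36 (SE 0.17, adjusted p = 1.64e-05). Atp5mpl, a small proteolipid of the enzyme, had 7.73, 7.78 and 8.58 in platelets, against 5.44, 5.64 and 5.07 in progenitors, a difference of 2.65 (SE 0.26, adjusted p = 0.000239). In both, the lowest platelet signal lay over 2 log2 units above the highest progenitor signal. Atp5k (subunit e) differed by 0.76 (SE 0.09), and Atp5j2 (subunit f) by 0.18 (SE 0.10), not called. All 4 subunits of the peripheral stalk, which holds the catalytic head still, were higher: Atp5f1 by 1.05 (SE 0.12), Atp5o by 0.79 (SE 0.12), Atp5h by 0.74 (SE 0.14) and Atp5j by 0.62 (SE 0.09). In the catalytic head, Atp5b (1.09, SE 0.12) and Atp5a1 (0.59, SE 0.13), the beta and alpha subunits, and Atp5e (1.4, SE 0.13) of the central stalk were higher, and Atp5d (0.01, SE 0.10) was not called.

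The 3 genes of the c ring encode the same mature protein, and 1 of them was called. Atp5g3 had 5.77, 6.24 and 5.96 in platelets, against 4.82, 4.88 and 4.62 in progenitors, a difference of 1.21 (SE 0.11, adjusted p = 0.000189). Atp5g1 had 5.48, 5.76 and 5.85 in platelets, against 6.10, 6.30 and 6.05 in progenitors and differed by -0.45 (SE 0.11, adjusted p = 0.0122), which passed the adjusted p but not 1.5-fold. Under the other scalings Atp5g1 differed by -0.33 with quantile normalization, -0.08 with equal medians and 0.27 with centring on the olfactory receptor genes. Atp5g2 had 6.69, 6.86 and 6.78 in platelets, against 6.96, 7.07 and 6.55 in progenitors and differed by -0.08 (SE 0.14, adjusted p = 0.611), with overlapping groups. The difference between these genes was not tested. Atp5g2 was measured by a probe on chromosome 7, and its probe on the gene's own chromosome, 15, differed by 0.04 (SE 0.14).

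The probe chosen decided the value of Atp5l, subunit g. The brightest of its 3 probes gave 10.48, 10.74 and 10.57 in platelets, against 7.29, 7.54 and 6.84 in progenitors, a difference of 3.37 (SE 0.21, adjusted p = 3.7e-05), and its identifier places it on chromosome 5. The gene lies on chromosome 9, and its 2 probes there differed by -0.17 (SE 0.13, adjusted p = 0.273, limma) and by -0.18. On the first of these the signals were 4.68, 4.85 and 4.37 in platelets, against 4.77, 4.77 and 4.87 in progenitors, close to the floor. The bright probe and the gene's own probes thus gave different results. Over the whole table, 99.59% of 22625 probes with both positions lay on the chromosome RefSeq gives for their gene, and Atp5g2, Atp5l and Cycs were the 3 members whose probe did not. Atp5l2, a relative of Atp5l, had 8.58, 8.85 and 9.04 in platelets, against 8.43, 7.22 and 8.44 in progenitors. It was called at an adjusted p of 0.0488 (limma) with a difference of 0.79 (SE 0.29), and was not called without the treatment term or without a CTC41.5G-EVs array.

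**Figure D3:**
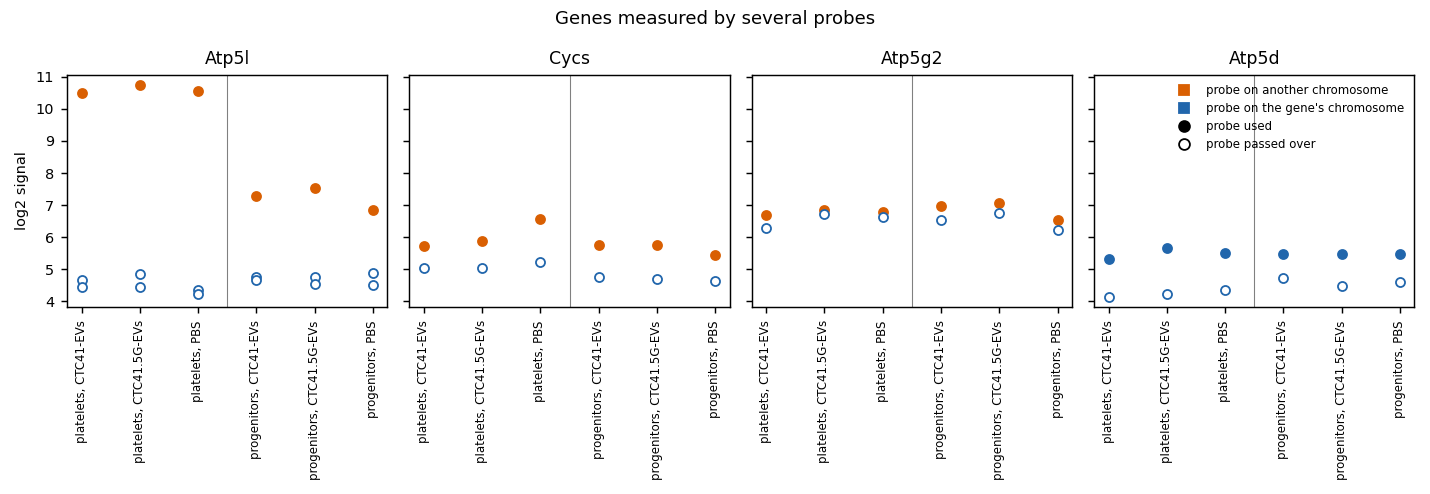
Log2 signal on the 6 arrays of each probe of the 4 members that have several, with platelet arrays left of the line and progenitor arrays right of it. Filled points are the probe used, open points the others, and colour tells whether the probe lies on the gene's chromosome (blue) or another (orange): the bright Atp5l probe separates the cell types by 3.37, while those on the gene's chromosome differ by -0.17 and -0.18.

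Grouped by role rather than by complex, 37 of 50 accessory subunits of complexes I and III, common subunits of complex IV and membrane accessory subunits of complex V were higher in platelets, with a median of 0.94, Atp5l on its bright probe among them. Of 14 others, 4 were higher, with a median of 0.11: Ndufv2, Sdhb, Atp5b and Atp5a1. Most of the 14 carry out electron transfer, oxidation or ATP synthesis, and Sdhc and Sdhd, which anchor complex II, are among them. Neither group had a member called lower. This grouping was made after the values were seen, it leaves out the tissue isoforms, cytochrome c, Cox7a2l (1.54, called higher), Uqcrc1, Uqcrc2, the stalks and ring of complex V and the assembly factors, and the difference between its 2 groups was not tested.

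Other mitochondrial genes were described from lists of the same pathway, to be read beside 11.4% higher, 23.3% lower and a median of -0.24 over all genes. Of 29 further assembly factors, 6 were higher (20.7%) and 3 lower (10.3%), with a median of -0.15. Coa5, Cox20 and Coa3, which serve the assembly of complex IV, were higher by 2.33 (SE 0.13), 2.0 (SE 0.13) and 1.70 (SE 0.14), with Cox20 below the floor of 4.23 in progenitors and higher by 1.57 from it, and the lower ones were Cox19, Ecsit and Acad9. Of 17 genes of the tricarboxylic acid cycle and pyruvate dehydrogenase, 2 were higher (11.8%) and none lower, with a median of 0.13. These were Sucla2, a subunit of succinyl-CoA ligase (1.65, SE 0.08, or 1.62 from the floor), and Ogdh, of the oxoglutarate dehydrogenase complex (0.98, SE 0.12), and the next in size, Dlst, was not called (0.50, SE 0.10). Of 23 genes of carriers, porins and protein import, 7 were higher (30.4%) and none lower, with a median of 0.42. The porin Vdac3 had 8.03, 8.54 and 8.34 in platelets, against 4.28, 4.32 and 3.82 in progenitors, with progenitor signals around the floor and a difference of 4.16 (SE 0.15), or 4.08 from it. Tomm7, of the outer membrane import channel, and Micos10, which shapes cristae, differed by 2.08 (SE 0.17) and 1.60 (SE 0.11). Of 11 regulators of mitochondrial biogenesis and transcription, Tfb2m (1.03, SE 0.11), Yy1 (1.0, SE 0.11) and Tfb1m (0.98, SE 0.09) were higher (27.3%) and Polrmt, the mitochondrial RNA polymerase, was lower (-0.62, SE 0.09; 9.09%), with a median of -0.10. In progenitors Tfb2m (mean 3.38) and Tfb1m (mean 3.84) lay below the floor, and from it they differed by 0.18 and 0.60.

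The EV treatments were compared over both cell types in the same limma fit, which asks whether a gene differed between treatments in the same way in platelets and progenitors. No member and no other gene (0%) was called, whether CTC41-EVs were set against PBS, CTC41.5G-EVs against PBS or CTC41.5G-EVs against CTC41-EVs. At an unadjusted p under 0.05 the members counted 0, 6 and 8 of 93 in that order, beside 3.46%, 6.2% and 6.3% of all genes. The smallest adjusted p of a member was 1.0, 0.724 and 0.747. The first 2 comparisons share the PBS arrays.

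Within a cell type an EV comparison is 1 array against 1, so there is no replicate check and no test. In platelets, 71 of 93 members had a lower signal on the CTC41-EVs array than on the PBS array, beside 47.1% of all genes. The median difference was -0.16, beside 0.01 over all genes. A difference of at least 1.5-fold was seen in 0 members upward and 3 downward, beside 2% and 1.74% of all genes. Bright genes in general were lower on that array: among genes with a mean of at least 5.07 in platelets, the level of the brighter probes (75th percentile), 60 of 72 members and 61.1% of 8247 genes were lower, with medians of -0.19 and -0.06. The 3 members past 1.5-fold were Atp5mpl, with 7.73 on the CTC41-EVs array, against 8.58 on the PBS array, Cycs, with 5.74 on the CTC41-EVs array, against 6.57 on the PBS array, and Uqcrb, with 6.33 on the CTC41-EVs array, against 7.13 on the PBS array. On the Cycs probe of the gene's own chromosome the difference was -0.19, in place of -0.84. The highest differences among these 72 members were those of Cox4i2 (0.46), Cox6b2 (0.40) and Cox6c (0.33). By complex, 28 of 34 members of complex I, 3 of 4 of II and 7 of 9 of III were lower with CTC41-EVs. So were 14 of 20 of complex IV and 15 of 17 of complex V. Of the 8 assembly factors 3 were lower and 5 higher, with a median of 0.04.

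The CTC41.5G-EVs array of platelets showed no such shift against the same PBS array. It was lower for 48 members and higher for 45, with 47.3% of all genes lower. The median was -0.01, beside 0.01 over all genes. At least 1.5-fold higher were 2 members (1.86% of all genes) and lower 3 (1.64%). Those lower were Atp5mpl (-0.80), Cycs (-0.71) and Uqcrb (-0.63), so the PBS array stood above both EV arrays for these 3 genes. Those higher were Atp5e, with 6.60 on the CTC41.5G-EVs array, against 5.94 on the PBS array, and Cox6b2, with 8.56 on the CTC41.5G-EVs array, against 7.95 on the PBS array, and Ndufa7 followed with 0.48 among the brighter members. Against the CTC41-EVs array, CTC41.5G-EVs was higher for 65 members and lower for 28, with a median of 0.13, beside 0.00 over all genes. Of these, 3 were at least 1.5-fold higher (2.34% of all genes): Atp5e, with 6.60 on the CTC41.5G-EVs array, against 5.87 on the CTC41-EVs array, Uqcr11, with 7.27 on the CTC41.5G-EVs array, against 6.64 on the CTC41-EVs array, and Atp5md, with 9.98 on the CTC41.5G-EVs array, against 9.37 on the CTC41-EVs array. At least 1.5-fold lower was 1 member (2.29% of all genes), Cox7b2, whose signals lay below the floor. Among the brighter genes the lowest were Cox6c (-0.28), Ndufb8 (-0.16) and Atp5j2 (-0.14). The CTC41-EVs array gave the lowest of the 3 platelet signals for 57 of 93 members (61.3%) and for 33.1% of all genes.

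In progenitors more members were higher than lower on both EV arrays. On the CTC41-EVs array, 47.1% of all genes were lower than on the PBS array, with a median of 0.01. Of the members, 63 were higher and 30 lower, with a median of 0.09. None was 1.5-fold apart, with 1.55% of all genes higher and 0.435% lower by that much. Among members with a mean of at least 5.07 in progenitors, the highest were Ndufa4, with 5.52 on the CTC41-EVs array, against 4.98 on the PBS array, Cox6b1, with 5.37 on the CTC41-EVs array, against 4.84 on the PBS array, and Atp5l (0.45, on its bright probe). The lowest of them were Uqcr11 (-0.30), Cox7b (-0.27) and Atp5k (-0.21). These brighter members were higher in 42 of 60 cases, with a median of 0.12, beside 62.7% of 10858 genes and 0.04. The mean behind this cut includes the EV arrays. Ndufa4 and Cox6b1, below 5.07 on the PBS array, passed it through them.

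On the CTC41.5G-EVs array of progenitors, 69 members were higher than on the PBS array and 24 lower, with 30.3% of all genes lower. The median was 0.19, beside 0.09 over all genes. At least 1.5-fold higher were 7 members (3.2% of all genes) and lower 2 (0.853%). Highest among the brighter members, Uqcrq had 6.63 on the CTC41.5G-EVs array, against 5.82 on the PBS array, Uqcrh had 5.75 on the CTC41.5G-EVs array, against 4.97 on the PBS array, and Atp5l 0.70 more on its bright probe. Uqcrq and Uqcrh, both of complex III, were also called higher in platelets. They were picked for a high signal on this array against PBS. That it was the progenitor array nearest to their platelet signals follows largely from that choice. Lower were Atp5l2, with 7.22 on the CTC41.5G-EVs array, against 8.44 on the PBS array, and Cox6c, with 5.24 on the CTC41.5G-EVs array, against 5.87 on the PBS array, followed by Atp5k (-0.36). Of the members of complex III, 8 of 9 were higher, with a median of 0.38. The counts were 25 of 34 for complex I (0.18) and 4 of 4 for complex II (0.22). They were 13 of 20 for complex IV (0.09), 13 of 17 for complex V (0.27) and 5 of 8 for assembly factors (0.04). Genes in general were higher on this array: 44 of the 60 brighter members and 74.9% of the 10858 brighter genes were, with medians of 0.21 and 0.13.

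Between the EV arrays of progenitors, 30.6% of all genes were lower with CTC41.5G-EVs than with CTC41-EVs, with a median of 0.08. The members split much like them, with 64 higher and 29 lower and a median of 0.11. None was at least 1.5-fold higher (1.26% of all genes), and 1 was lower (0.713%), Atp5l2, with 7.22 on the CTC41.5G-EVs array, against 8.43 on the CTC41-EVs array. Among the brighter members Uqcrq (0.56), Uqcrh (0.42) and Atp5md (0.40) were highest, and Cox6c (-0.43) and Ndufb9 (-0.37) followed Atp5l2 at the low end. The PBS array gave the lowest of the 3 progenitor signals for 57 of 93 members (61.3%), beside 44.1% of all genes, and the CTC41.5G-EVs array the highest for 55 (59.1%), beside 57.6%. The difference between platelets and progenitors within a treatment accordingly had a median over members of 0.58 with CTC41-EVs, 0.53 with CTC41.5G-EVs and 0.82 with PBS, while that over all genes was -0.18, -0.30 and -0.24. Every one of these is a difference of single arrays. The neutrophil, erythroid and platelet marker lists had medians between -0.15 and 0.20 for the other EV comparisons, and the 12 platelet markers had median differences in platelets of 0.38 when CTC41.5G-EVs were set against PBS and of 0.49 when they were set against CTC41-EVs.

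**Figure D4:**
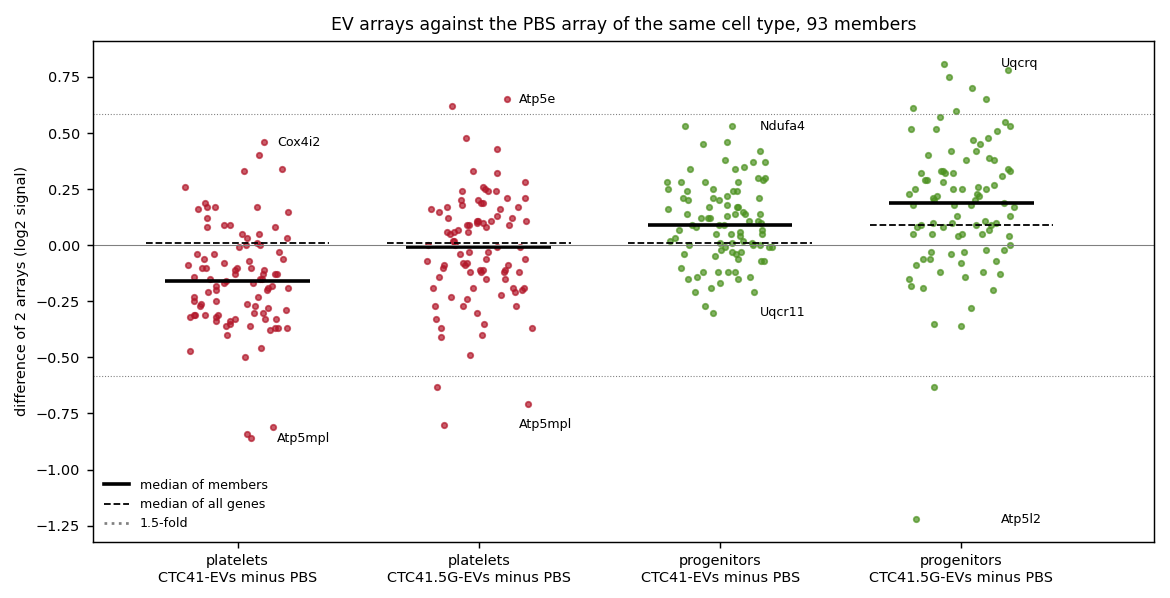
Difference between each EV array and the PBS array of the same cell type (log2 signal, vertical axis) for the 93 genes, one point per gene, with the names of some of the highest and lowest. Thick lines are the members' medians of -0.16 and -0.01 in platelets and 0.09 and 0.19 in progenitors, dashed lines the medians of all genes, and dotted lines mark 1.5-fold. Both differences of a cell type use the same PBS array.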

How the data were processed

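The authors deposited log2 signals of 6 Clariom D Mouse arrays, 1 per group. The program was Affymetrix Expression Console 1.4.1.46, per the submitters' processing notes. The series text names another Affymetrix algorithm, so the scaling between arrays is unclear. The protocols also differ among themselves on the RNA kit and the amount of RNA. The log2 values were used as deposited. Of 72688 probes, 30604 named 1 gene, 2146 several and 39938 none. The first kind gave 30142 genes, 355 of them with several probes, of which the one with the highest mean was kept. Cell types and treatments were tested with limma 3.58.1 in R 4.3.3 (additive terms, 2 residual degrees of freedom, intensity trend, no filter on signal), with p-values adjusted over all genes. The fit was tested on simulated data. Within a cell type no test was possible. Arrays have no read depth, and their number sets the precision.

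The members and lists were chosen with earlier results of these data known. The text names the 4 markers, the 3 highest and 2 lowest differences of each complex, all lower calls, the isoform pairs, the 3 highest and 3 lowest EV differences among brighter genes and the 3 most different genes of each pathway list. Other members are named after their values were seen. Alternatives changed the scaling, the floor, the probe rule, the trend, the treatment term and the arrays included.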

Additional observations from a re-analysis of the deposited data

Results flagged for a closer look

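On the EV arrays the medians of the 93 members differed between the cell types, which is a difference between single arrays and was not tested. For CTC41-EVs minus PBS they lay on opposite sides of 0, at -0.16 in platelets and 0.09 in progenitors, beside 0.01 and 0.01 over all genes. Over members with a mean of at least 5.07 in the cell type they were -0.19 and 0.12, beside -0.06 and 0.04 over all genes that bright. For CTC41.5G-EVs minus PBS the median was near 0 in platelets, at -0.01, and 0.19 in progenitors, beside 0.01 and 0.09 over all genes. Over the brighter members it was 0.01 and 0.21, beside 0.01 and 0.13.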

How the results depend on the processing

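Calls rest on 3 arrays a cell type, each of another treatment, and signals near 4.23 cannot be told from background. The count of members called higher in platelets stayed within 1.5 times of 51 in every alternative, from 44 to 76. The count called lower was 2, and it was 0 with quantile normalization, with equal medians and with centring on olfactory receptor genes, 1 with the floor at 5.07, and 2 to 3 with 1 array left out. The median of members was 0.86, 1.02 and 1.36 under those 3 scalings, and 0.55 to 0.70 with 1 array left out. Leaving out either PBS array gave 44 higher, the lowest count. No EV comparison over both cell types called a member under any alternative run. The platelet median of CTC41.5G-EVs minus PBS, -0.01, turned to 0.00 with the floor at 4.23 and 0.01 with that at 5.07. Of 473 alternatives of 43 named members, 412 kept direction and call, 6 lost the call, 15 gained one and 40 changed direction, in 17 members. Centring on olfactory receptor genes turned 14 to above 0: Atp5g2 (0.63), Cox7a1 (0.69) and Sdhd (0.68), which were then called, and without a call Atp5g1 (0.27), Cox4i2 (0.49), Cox6a2 (0.52), Cox7b (0.46), Cox7b2 (0.21), Cox8b (0.37), Cyc1 (0.46), Atp5sl (0.30), Ndufaf6 (0.14), Ndufb10 (0.28) and Ndufv1 (0.30). Equal medians turned 8 to above 0, Atp5g2 (0.29), Cox4i2 (0.15), Cox6a2 (0.17), Cox7a1 (0.35), Cox7b (0.12), Cox8b (0.02), Cyc1 (0.12) and Sdhd (0.33), and quantile normalization 4, Cox6a2 (0.12), Cox7a1 (0.21), Cox8b (0.02) and Sdhd (0.30). With 1 array left out, 12 values of 5 members with small differences turned: Atp5g2 ranged from -0.24 to 0.01, Cox7a1 from -0.08 to 0.04, Sdhc from -0.03 to 0.11, Sdhd from -0.23 to 0.09 and Uqcrc1 from -0.13 to 0.11. Because of the treatment term, leaving out the platelet or the progenitor array of a treatment gave the same differences. The leave-outs are thus 3 distinct checks, and the 12, the 40 and the 473 count each of them for both arrays. The probe on the gene's own chromosome, an alternative added after the data were seen, turned Atp5l to -0.17 and Atp5g2 to 0.04. The treatment term already matches the arrays of a treatment across the cell types, and without it 50 members were higher. The labels give no replicate numbers.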

Other observations

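Probes that name a member together with another gene were outside the rule. The probe of Ndufa11 and Ndufa11b, with Ndufa11 a membrane-arm subunit of complex I, had 6.80, 6.99 and 6.86 in platelets (CTC41-EVs, CTC41.5G-EVs and PBS), against 5.80, 5.83 and 5.96 in progenitors. The probe of Ndufb4 and Gm3244 had 5.17, 5.40 and 5.53 in platelets, against 4.75, 5.08 and 5.05 in progenitors. Those of Cox5b with Gm11273 and of Atp5g2 with Gm10231 had groups that overlapped. With symbols updated through RefSeq the rule gives 95 genes, of which 53 were higher and 2 lower in platelets, with a median of 0.66.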
